A study of Drosophila melanogaster with 4 samples.

Results

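Translation factors and aminoacyl-tRNA synthetases were examined in adult male Drosophila melanogaster after a cold shock. The genes were taken by name, as the genes on the 12k array whose single symbol starts with eIF, eEF or eRF, or ends in RS or RS-m after the code of an amino acid. This gave 45 of 6793 named genes, of which 31 encode translation factors and 14 encode synthetases. In the RefSeq table of all fly genes 89 symbols follow the same rule, 54 of factors and 35 of synthetases, so a part of each class was analysed here. Genes such as eIF2alpha, eIF2gamma, eIF4E1, eEF2 and eRF1 were not analysed on the 12k arrays, and SerRS-m was left out because its spots also carry the symbol of Surf4.

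The cold-shocked flies were kept for 2 h at 0 ± 0.5 °C and allowed to recover for 30 min at 25 °C, while the untreated flies, reared with them, stayed at 25 °C in the treatment vessel. Both groups were males of one strain, dp cn bw cl, taken whole at an age of 6 to 7 days, and no other strain was used. On the 12k design there were 3 arrays, and each set cold-shocked flies against untreated flies of its own biological pair, with cold-shocked RNA always in Cy5, so that dye and treatment cannot be told apart. A single pilot array of the 7k design carried the reversed dyes. All values are the authors' ratios of the channels on a log scale, taken here as log2. Which channel was divided by which is not stated in the sources used here. Cy5 over Cy3 and treated over control point the same way, and on that basis values above 0 likely mean a higher level after the cold shock.

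Translation proceeds in stages that different members serve. Initiation factors (eIF) load the initiator tRNA and the mRNA on the small ribosomal subunit, elongation factors (eEF) deliver aminoacyl-tRNAs and move the ribosome, and release factors (eRF) end the chain. Aminoacyl-tRNA synthetases charge each tRNA with its amino acid, and those whose symbol ends in -m work in mitochondria. Control of initiation, through eIF2 and its exchange factor eIF2B or through the cap-binding eIF4 complex, is the best-known way in which stressed cells slow protein synthesis.

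No member passed limma's test. Of 19325 features 0 passed at an adjusted p of 0.05 (0% of those tested), and the smallest adjusted p among the members was 0.853. Before adjustment 2 members lay under a p of 0.05, eIF2D and eIF3i, both below 0, against 2.58% of named genes lower and 0.913% higher at that level. The mean log2 ratios of the 45 members ran from −1.001 for eIF2D to 0.35 for eIF5B, with a median of −0.12, against a median of −0.048 over all named genes. In 43 of the 45 the mean lay within a fold of 1.5 of no difference, as it did in 93.6% of all named genes, and the exceptions were eIF2D and eIF3i. In whole flies a ratio cannot tell fewer cells of a type apart from less RNA per cell.

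**Figure D1:**
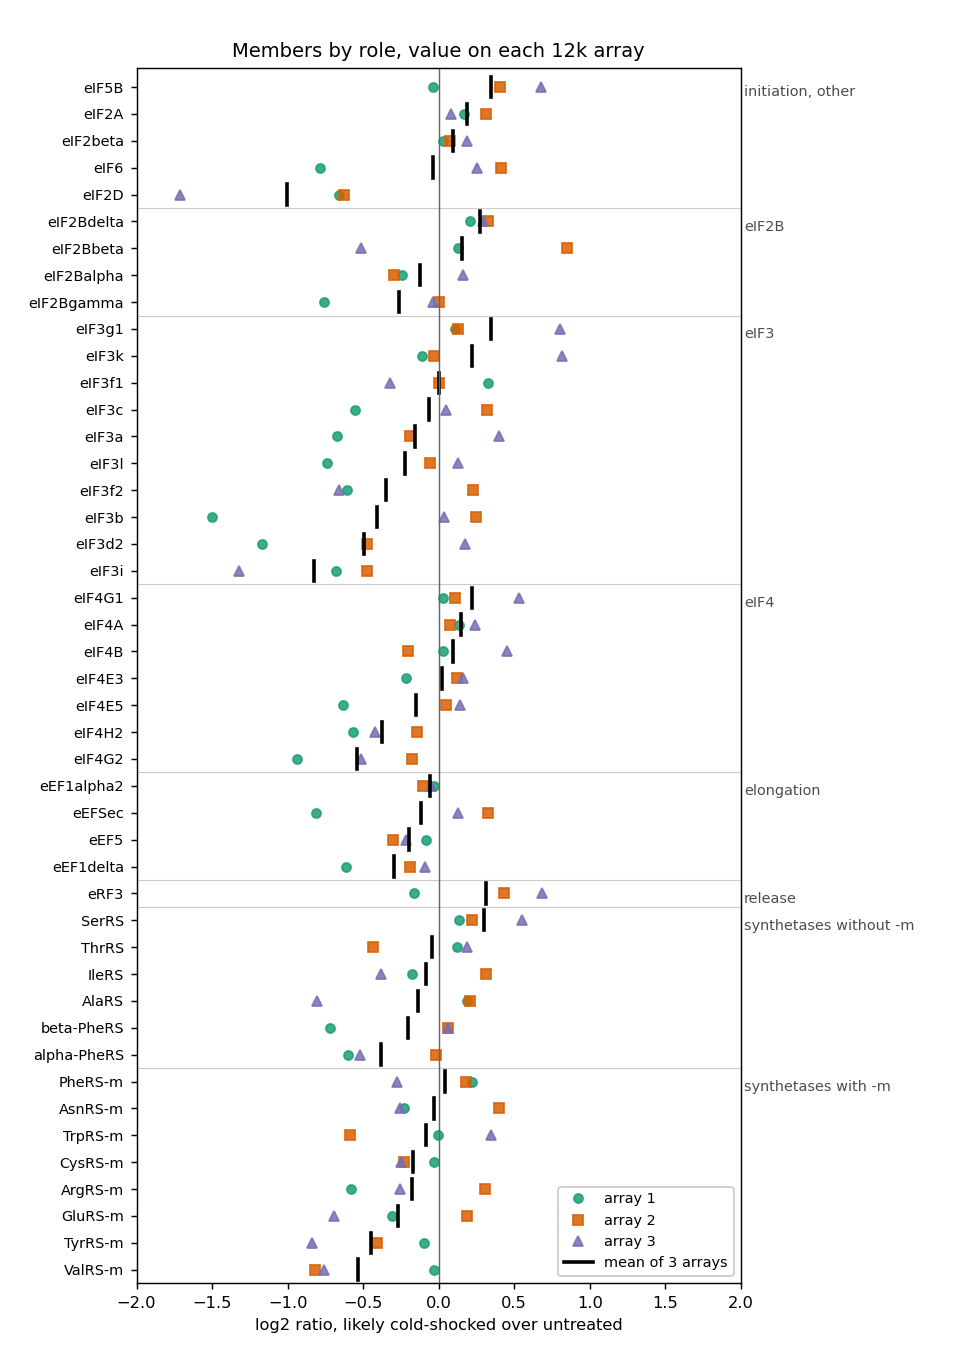
Log2 ratios (x axis, likely cold-shocked over untreated) of the 45 members, in rows grouped by role, with 1 symbol for each 12k array and a bar for the mean of 3 arrays. eIF2D and eIF3i lie to the left on every array, and most other genes scatter on both sides of 0.

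The gene eIF2D encodes an initiation factor that can bring tRNA to the ribosome independently of eIF2 and is known for its part in reinitiation. It had log2 ratios of −0.66, −0.63 and −1.71 on arrays 1, 2 and 3. All 3 values were below 0, that on array 3 farthest. The mean was −1.001 ± 0.62 (SD, n = 3), or 2.00-fold lower, with a 95% interval from −1.69 to −0.31 and an unadjusted p of 0.0107 (limma adjusted p = 0.853). Its mean stood at the 1.14 percentile of the named genes. Without array 3 the mean was −0.64.

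On each array the paired spots of eIF2D differed by at most 0.22, so both spots gave the low values. A rule of size asked for a fold over 1.5 on every array, always in one direction. eIF2D was the single member to meet it, where 0.147% of named genes were lower (10 of 6793) and 0.0736% higher. With each array's median subtracted it no longer met this rule. After subtraction of the local median, the running median of the spots around it in table order, its ratios were −0.97, −0.72 and −1.52, with a mean of −1.07. eIF2A, whose spots lie a few places further along the array's table, had averages above 0 on all 3 arrays, at 0.17, 0.31 and 0.080. One of its paired spots was below 0 on arrays 1 and 3, at −0.047 and −0.41, and with local medians subtracted the gene stood at −0.13 on array 1.

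In animals DENR and MCTS1 form a complex that resembles eIF2D in its parts. DENR had ratios of −0.055, 0.30 and −0.34, on both sides of 0. MCTS1 had −0.21, −0.14 and −0.14, with a mean of −0.17 ± 0.042 (SD, n = 3), below 0 on every array but far closer to 0 than eIF2D.

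The initiator tRNA is carried by eIF2, of which the beta subunit was analysed here. eIF2beta had log2 ratios of 0.029, 0.075 and 0.19, all slightly above 0, with a mean of 0.097 ± 0.082 (SD, n = 3). eIF2A, which can bind initiator tRNA by another route, had a mean of 0.19 ± 0.12 (SD, n = 3). eIF5B, the GTPase that joins the ribosomal subunits, had the highest mean of all members. Its ratios were −0.039, 0.41 and 0.68, and the mean of 0.35 ± 0.36 (SD, n = 3) was no larger than its spread (limma adjusted p = 0.862). eIF6, which keeps the large subunit from joining early, had −0.79 on array 1 and 0.41 and 0.25 on arrays 2 and 3, and so no common direction.

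The exchange factor eIF2B reloads eIF2 with GTP and is the target of phosphorylated eIF2. Its measured subunits did not share a direction. The regulatory subunit gene eIF2Bdelta had ratios of 0.21, 0.32 and 0.29, with a mean of 0.27 ± 0.062 (SD, n = 3), above 0 on all 3 arrays. That evenness did not hold at the level of spots, because on array 3 its paired spots read −2.20 and 2.78. The other regulatory subunits, eIF2Bbeta at 0.15 ± 0.68 and eIF2Balpha at −0.12 ± 0.25 (SD, n = 3), had mixed signs. The gene eIF2Bgamma, whose product belongs to the catalytic part of eIF2B, had a mean of −0.27 ± 0.43 (SD, n = 3). This was set by −0.76 on array 1, and without that array the mean was −0.019. On array 3 the paired spots of eIF2Bgamma read 0.87 and −0.94. With local medians subtracted its value on array 3 was 0.61 and its mean −0.0028. The gene of the epsilon subunit, eIF2Bepsilon, was not named on the 12k design.

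The eIF3 complex is the scaffold that holds the small subunit, the other factors and the mRNA together. Of its 10 measured genes 7 had means below 0 (70%), against 57.0% of all named genes. One was below 0 on all 3 arrays and one above (10% each), against 16.9% and 12.5% of named genes, so these shares were near the background. The low one was eIF3i, whose product is a WD-repeat subunit bound to eIF3b and eIF3g. It had ratios of −0.68, −0.48 and −1.32, each below 0, with array 3 lowest. The mean was −0.83 ± 0.44 (SD, n = 3), or 1.77-fold lower, with a 95% interval from −1.44 to −0.22 and an unadjusted p of 0.0148 (limma adjusted p = 0.853). With local medians subtracted the mean was −0.70 and all 3 values stayed below 0.

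The binding partners of eIF3i in the complex had other patterns. eIF3g1, an RNA-binding subunit, had ratios of 0.10, 0.13 and 0.80, above 0 on every array, with a mean of 0.35 ± 0.40 (SD, n = 3). eIF3b, a core subunit, had −1.50, 0.24 and 0.036, so that its mean of −0.41 ± 0.95 (SD, n = 3) was made by array 1 alone. Without that array it stood at 0.14.

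The other core subunit genes eIF3a and eIF3c likewise had their low values on array 1, at −0.68 and −0.55, and means of 0.10 and 0.18 without it. eIF3l had −0.74 on array 1 and a mean of 0.035 without it. eIF3k at 0.22 ± 0.51 and eIF3f1 at 0.0019 ± 0.32 (SD, n = 3) had mixed signs. Over the 10 genes the median was −0.64 on array 1, −0.015 on array 2 and 0.085 on array 3, against −0.12, 0.016 and 0.015 over all named genes. With local medians subtracted the median of the eIF3 genes on array 1 was −0.13.

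The fly genome has second copies of some eIF3 subunit genes. eIF3d2 had ratios of −1.17, −0.48 and 0.17, with a mean of −0.49 ± 0.67, and eIF3f2 had −0.61, 0.23 and −0.66, with a mean of −0.35 ± 0.50 (SD, n = 3). Neither kept one sign. The mean of eIF3f2 was 0.21 with local medians subtracted, a turn of sign, and that of eIF3d2 was −0.46.

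The eIF4 group recognizes the cap and unwinds the leader of the mRNA. The helicase gene eIF4A had ratios of 0.13, 0.075 and 0.24 and the scaffold gene eIF4G1 had 0.026, 0.11 and 0.53, all above 0. Their means were 0.15 ± 0.083 and 0.22 ± 0.27 (SD, n = 3), and the 95% interval for eIF4A ran from −0.37 to 0.67. The common sign of eIF4A was lost when local medians were subtracted, at −0.11, −0.031 and 0.24 with a mean of 0.033. The averages of eIF4G1 remained above 0 on every array, but its deposited spots on array 1 read 0.27, −0.049, −0.075 and −0.043. A deposited spot of eIF4A read −0.077 on array 2. eIF4B, which assists the helicase, stood at 0.091 ± 0.33 (SD, n = 3) with mixed signs.

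Lower values lay among other members of the group. eIF4G2, a scaffold paralog needed in the male germline, had −0.94, −0.18 and −0.51, below 0 on all 3 arrays, with a mean of −0.54 ± 0.38 (SD, n = 3) and an unadjusted p of 0.0649 (limma adjusted p = 0.853). With local medians subtracted its mean was −0.34. eIF4H2 had −0.57, −0.14 and −0.42, with a mean of −0.38 ± 0.22 (SD, n = 3), and its value on array 1 became 0.18 with local medians subtracted.

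The cap-binding paralogs eIF4E3, which acts in spermatogenesis, and eIF4E5 had means of 0.021 ± 0.21 and −0.15 ± 0.42 (SD, n = 3), both with mixed signs. Markers of the testis, of which 5 of 14 listed genes were measured, had a median of the mean ratios of 0.14. On all 3 arrays 1 was above 0 (20%) and 0 below, against 12.5% and 16.9% of all named genes. The 2 measured of 11 accessory gland genes had mixed signs. These ratios do not show whether a tissue was present, since channel intensities were not analysed here.

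The elongation factor genes analysed, 4 in number, had means below 0, as did 57.0% of all named genes, and 0 passed the test. eEF5, formerly known as eIF5A, the factor that carries hypusine and helps stalled ribosomes along, had ratios of −0.086, −0.30 and −0.21. eEF1delta, a subunit of the exchange factor for eEF1A, had −0.61, −0.19 and −0.091. Both were below 0 on all 3 arrays, with means of −0.20 ± 0.11 and −0.30 ± 0.28 (SD, n = 3), and both remained so with local medians subtracted, at −0.19 and −0.17. Neither passed the test, with limma adjusted p of 0.889 and 0.865.

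The tRNA carrier gene eEF1alpha2 had the smallest spread of all members over the arrays, with −0.031, −0.10 and −0.049 and an SD of 0.038. Neither the evenness nor the common sign held when local medians were subtracted, at 0.20, −0.19 and −0.18, and the median over its spots gave a mean of 0.025 in place of −0.061. Its 4 single spots ranged over 1.3 on array 3, and a cDNA spot may also bind the transcript of the close paralog eEF1alpha1, so this evenness is that of an average. eEFSec, which serves selenocysteine, had −0.81 on array 1 and 0.33 and 0.13 on arrays 2 and 3.

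The release factor analysed here was eRF3, the GTPase that works with eRF1. It had ratios of −0.16, 0.43 and 0.68, and a mean of 0.32 ± 0.43 (SD, n = 3). With local medians subtracted all 3 were above 0, at 0.33, 0.44 and 0.70, with a mean of 0.49. It did not pass (limma adjusted p = 0.868).

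**Figure D2:**
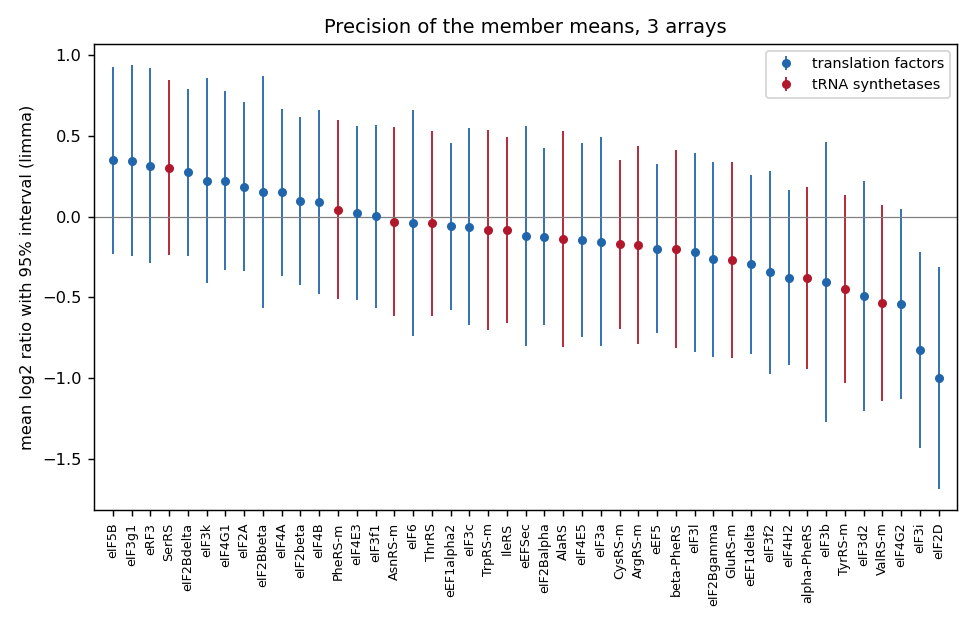
Mean log2 ratio (y axis, likely cold-shocked over untreated) of each member with its 95% interval from limma, 3 arrays, ordered from high to low along the x axis. The intervals of eIF2D and eIF3i at the right end stay below 0 before adjustment, and the other 43 include 0.

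Among synthetases 12 of 14 had means below 0, 85.7% of them, against 57.0% of all named genes. Of the synthetase genes 4 were below 0 on all 3 arrays (28.6%) and 1 above (7.14%), against 16.9% and 12.5% of all named genes. With local medians subtracted 0 were below 0 on all 3 arrays and 1 above (7.14%), against 16.0% and 14.8% of named genes. The means of the 4 nevertheless stayed below 0, at −0.39 for ValRS-m, −0.37 for alpha-PheRS, −0.30 for TyrRS-m and −0.042 for CysRS-m. Their common sign was lost through values of 0.17, 0.0076, 0.025 and 0.045, in the same order. ValRS-m, which charges mitochondrial valine tRNA, had ratios of −0.032, −0.82 and −0.76. The values on arrays 2 and 3 were low and that on array 1 near 0, but the paired spots on array 3 read −1.38 and −0.14. The mean was −0.54 ± 0.44 (SD, n = 3), with an unadjusted p of 0.0751 (limma adjusted p = 0.853). TyrRS-m had −0.099, −0.41 and −0.84, with a mean of −0.45 ± 0.37 (SD, n = 3), and without array 3 it stood at −0.25. Its 4 spots spread over 3.28 on array 3. CysRS-m had −0.035, −0.23 and −0.25, with a mean of −0.17 ± 0.12 (SD, n = 3).

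The other mitochondrial synthetase genes had mixed signs. GluRS-m had a mean of −0.27 ± 0.44, ArgRS-m one of −0.18 ± 0.45, TrpRS-m one of −0.083 ± 0.47 and AsnRS-m one of −0.031 ± 0.37 (SD, n = 3). PheRS-m, at 0.042 ± 0.28 (SD, n = 3), was the single mitochondrial one with a mean above 0. The 8 mitochondrial genes had medians of −0.067, −0.023 and −0.27 on arrays 1, 2 and 3.

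The 6 synthetases without the -m suffix had medians of −0.029, 0.13 and −0.16 on the same arrays. SerRS was the one synthetase above 0 on all 3 arrays, at 0.13, 0.22 and 0.55, with a mean of 0.30 ± 0.22 (SD, n = 3, limma adjusted p = 0.862). With local medians subtracted it stood at 0.27 and kept that sign on every array. The subunits of the phenylalanine enzyme were both low on array 1, at −0.60 for alpha-PheRS and −0.72 for beta-PheRS. They parted on array 3, at −0.52 for alpha-PheRS and 0.061 for beta-PheRS, and their means were −0.38 ± 0.32 and −0.20 ± 0.45 (SD, n = 3).

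AlaRS, IleRS and ThrRS had means of −0.14, −0.083 and −0.042 with mixed signs. AlaRS had 2 printed pairs of spots that disagreed, and on array 3 one pair read −1.44 and −1.79 while the other read 0.010 and −0.0096.

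**Figure D3:**
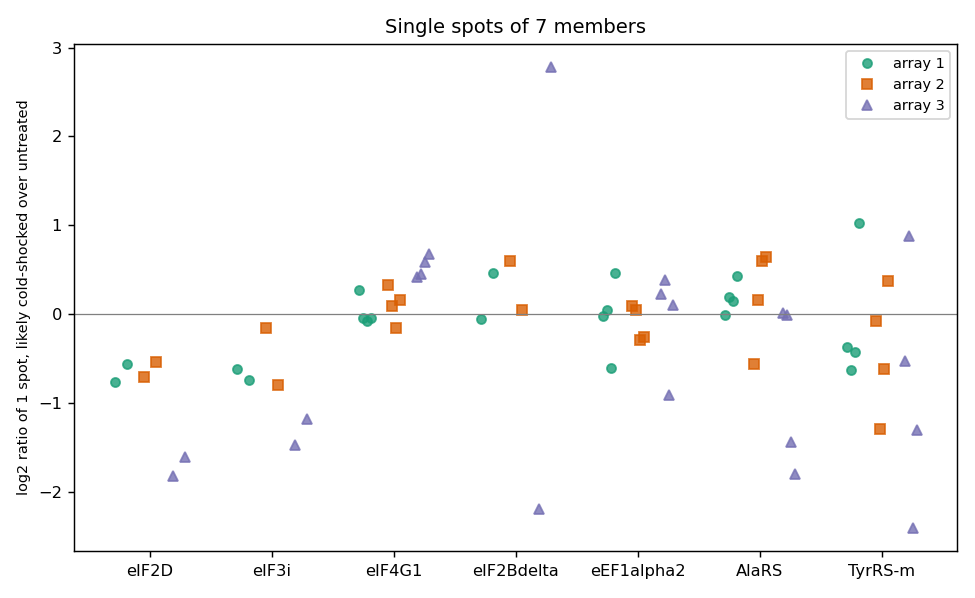
Log2 ratio of every single spot (y axis, likely cold-shocked over untreated) for 7 members, with 1 symbol for each 12k array. Spots of eIF2D and eIF3i lie below 0 throughout, while those of eIF2Bdelta, AlaRS and TyrRS-m spread widely on array 3.

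Factors and synthetases were then set against each other on each array. The median factor had a log2 ratio of −0.24, 0.051 and 0.13 on arrays 1, 2 and 3, and the median synthetase had −0.067, 0.12 and −0.27. The difference, factors minus synthetases, was −0.18, −0.070 and 0.39. Its sign was not the same on every array, and the mean of 0.048 ± 0.30 (SD, n = 3) was smaller than its spread. With local medians subtracted the differences were −0.021, −0.12 and 0.44. The median of the gene means was −0.063 over factors and −0.15 over synthetases.

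The shares below 0 were alike on arrays 1 and 2 and differed on array 3. On array 1, 22 of 31 factors were below 0 (71.0%) and 10 of 14 synthetases (71.4%), against 62.1% of all named genes. On array 2 it was 14 of 31 factors (45.2%) and 6 of 14 synthetases (42.9%), against 47.9%. On array 3, 11 of 31 factors (35.5%) and 10 of 14 synthetases (71.4%) were below 0, against 48.7% of all named genes. By the class medians array 3 had the larger separation, with factors higher, and on arrays 1 and 2 factors were lower.

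**Figure D4:**
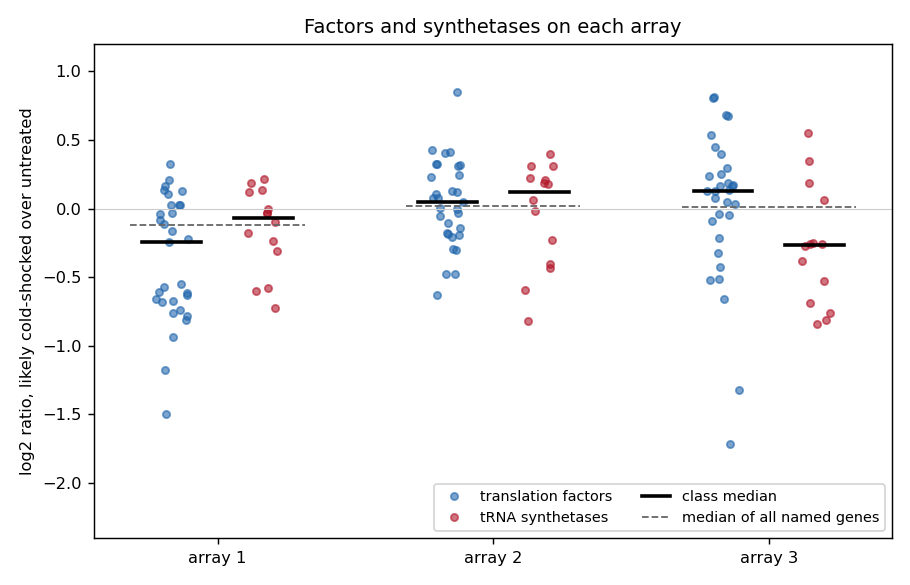
Log2 ratio (y axis, likely cold-shocked over untreated) of each factor and each synthetase on the 12k arrays, with bars for the class medians and a dashed line for the median of all named genes. Factors lie lower than synthetases on array 1 by 0.18 and higher on array 3 by 0.39.

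Members with one sign on all 3 arrays numbered 19 of 45, of which 7 were above 0 (15.6%) and 12 below (26.7%). Over all named genes 12.5% were above 0 on all 3 arrays and 16.9% below. After subtraction of local medians the members split into 9 above and 5 below, against 14.8% and 16.0% of named genes, and after subtraction of array medians into 8 and 7, against 14.2% and 15.2%. In both the deposited values and those with local medians subtracted, 5 genes were above 0 on all 3 arrays, namely eIF2beta, eIF2Bdelta, eIF3g1, eIF4G1 and SerRS. Another 5, namely eIF2D, eIF3i, eIF4G2, eEF1delta and eEF5, were below 0 in both. The share of all named genes that keep one sign in both was not computed. These signs are those of averages over spots. Among deposited spots of the other sign were those of eIF2beta (−0.11) and SerRS (−0.097) on array 1 and of eEF1delta (0.21) on array 3. Of the 4 synthetases below 0 throughout, 0 stayed so on every array with local medians subtracted, though their means remained below 0. SerRS remained above 0 on every array.

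**Figure D5:**
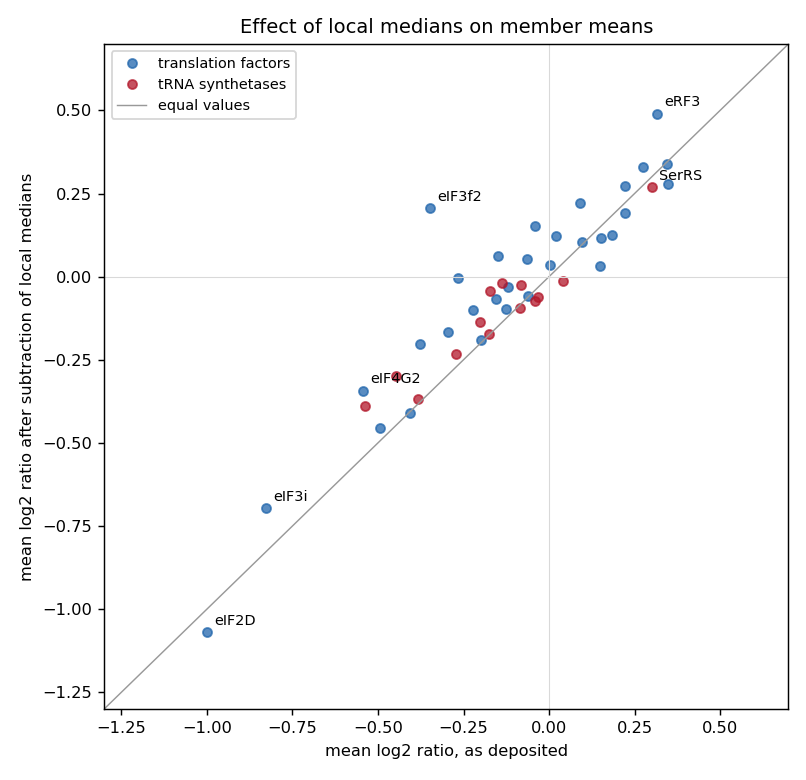
Mean log2 ratio of each member as deposited (x axis) and after subtraction of the running median of the surrounding spots (y axis), over 3 arrays, with a line of equal values. eIF2D and eIF3i stay lowest on both axes, and eIF3f2 lies at −0.35 on the x axis and 0.21 on the y axis.

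How much the arrays shared was limited. Across the 31 factors Pearson's r was 0.28 for array 1 with array 2, 0.29 for array 1 with array 3 and 0.39 for array 2 with array 3. Across the 14 synthetases it was, in the same order, −0.25, 0.095 and 0.023. Over all 6793 named genes the same pairs of arrays gave 0.088, 0.098 and 0.078. These are descriptions across genes, which share array, dye orientation and normalization and are not independent replicates. The 49 printed pairs of member spots differed by a median of 0.25, 0.30 and 0.42 on arrays 1, 2 and 3. Over all named genes the printed pairs differed by a median of 0.32, 0.34 and 0.39. The median 95% interval of a member mean reached 0.59 to either side, against 0.57 over all named genes. For 38 of the 45 members the whole interval lay within a fold of 2, as it did for 5428 of 6793 named genes. These intervals are not adjusted for the number of features and cover the spread between these pairs only.

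Other translation genes were described from a list. A list of 54 genes of translation control and of mitochondrial translation outside the naming rule had 30 measured members, of which 0 passed the test. On all 3 arrays 2 were above 0 (6.67%) and 6 below (20%), near the 12.5% and 16.9% of all named genes. Their median mean ratio was −0.063. AIMP1, which encodes a scaffold protein of the multi-synthetase complex, had −0.53, −0.67 and −0.31, with a mean of −0.50 ± 0.18 (SD, n = 3) and a smaller spread than eIF3i or eIF2D. It did not pass (limma adjusted p = 0.853). Its partner AIMP2 had 0.049, −0.24 and 0.39 and so no common direction.

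Genes that act on eIF2 or on the cap complex were also measured. Gcn2, an eIF2alpha kinase, had a mean of −0.29 ± 0.32 and was below 0 on all 3 arrays, while the other eIF2alpha kinase gene PEK had −0.050 ± 0.33 with mixed signs (SD, n = 3). The ATF4 gene crc stood at −0.17 ± 0.20 and the phosphatase subunit gene PPP1R15 at −0.28 ± 0.74 (SD, n = 3). The poly(A)-binding protein gene pAbp, whose product bridges to eIF4G, was below 0 on all 3 arrays with a mean of −0.25 ± 0.16 (SD, n = 3). These 5 genes had limma adjusted p of at least 0.868.

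The means of the list farthest from 0 were those of the growth signalling genes Akt, a kinase, and Tsc1, an inhibitor of the pathway. Akt stood at −0.78 ± 1.02 and Tsc1 at −0.58 ± 0.59 (SD, n = 3), both below 0 on all 3 arrays, with −1.95 and −1.25 on array 1 and limma adjusted p of 0.853. Without array 1 their means were −0.20 and −0.24. The kinase gene S6k had a mean of 0.27 ± 0.27 (SD, n = 3) and mixed signs. On the other side, mEFTs, a mitochondrial elongation factor, had 0.25, 0.34 and 0.19, and Dhps, whose product starts the hypusine modification of eEF5, had 0.29, 0.029 and 0.33. Both were above 0 on all 3 arrays, with means of 0.26 ± 0.078 and 0.22 ± 0.16 (SD, n = 3).

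Some values elsewhere on the arrays moved beside these results. Of 18 listed female markers 9 were measured, although all flies were labelled male. Below 0 on all 3 arrays were 5 of them (55.6%), Yp1, Yp2, Yp3, osk and dhd, against 16.9% of all named genes. The other 4, yl, otu, fs(1)N and swa, had mixed signs, with means of fs(1)N and swa above 0. The list median was −0.88, −0.45 and −0.10 on arrays 1, 2 and 3, with gene means from −2.64 to 0.25. This median was lowest on array 1. Of the 45 members 24 were likewise lowest on array 1 (53.3%), as were 45.1% of all named genes, 8 were lowest on array 2 and 13, eIF2D and eIF3i among them, on array 3. The part of the female markers in the ratios of the translation genes was not tested. Of 16 listed heat shock genes 4 were measured, and 2 were above 0 on all 3 arrays (50%), against 12.5% of all named genes. These were Hsp26 at 0.82 ± 0.62 and stv at 0.55 ± 0.13 (SD, n = 3). Hsp68 at 0.83 ± 0.95 and DnaJ-1 at −0.16 ± 0.36 (SD, n = 3) had mixed signs. Array 1 had the lowest median over all spots, at −0.13, against 0.032 and 0.031 on arrays 2 and 3.

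The pilot array held 19 genes that follow the naming rule, 11 factors and 8 synthetases, and 11 of them were also on the 12k design. The direction of its ratio is unsettled. Values are therefore printed with the deposited sign, as distances from the array's median of 0.40, and every sign turns if the ratio was formed the other way. It had no replicate. eIF2D stood at 0.74, with spots at 0.42 and 1.07, eIF6 at 0.83 and eIF3f2 at 0.80. At the other end were eRF1 at −1.28 and eIF3m at −1.04, neither of which was named on the 12k design. The median was −0.49 over the factors and −0.29 over the synthetases, with 4 of 11 and 1 of 8 above the array's median, against 1174 of 2377 named genes.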

How the data were processed

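Competitive cDNA arrays measured RNA of whole males. The deposited values are 1 log2 ratio per spot, which the authors derived from normalized data, per the labels. The sources used here say nothing of image analysis, background correction, normalization method or spot filters. They leave the log base unstated too, and log2 was assumed because values reached −14.57, beyond the natural log of a 16-bit range, 11.09, if processed channel values are at least 1. All folds depend on this.

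Of 27648 spots, 15116 had 1 symbol in the platform annotation, 102 several and 12430 none. Of the spots with 1 symbol 14894 matched the RefSeq table of Release 6 by gene identifier. No symbol of a member changed through this update. Spots of a gene were averaged (41 members had 2 spots and 4 had 4), and unnamed spots were kept singly, giving 19325 features with no missing value. The mean over 3 arrays was tested against 0 by a two-sided moderated test (limma 3.58.1, R 4.3.3, functions lmFit and eBayes; 2 residual and 4.99 prior degrees of freedom), with Benjamini-Hochberg adjustment over all features. The fit was tested on simulated data, where it made calls only at the largest of the folds simulated. It made none at a smaller simulated fold that was still larger than the fold of any member mean. The lack of calls therefore does not exclude changes of the sizes seen here. Local medians are running medians over each spot and the 50 on either side in table order.

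Members, lists and settings were chosen with earlier results of these data known. Genes named are members with one sign on all 3 arrays, the 5 highest and 5 lowest of each class and the complexes described. Of the list of other translation genes they are those with one sign and the 3 largest means, and DENR, AIMP2, PEK, crc, PPP1R15 and S6k were added after their values were seen. eIF6, eEFSec, AlaRS, IleRS and ArgRS-m were added to complete the account of the members. Array number limits the precision, and replicates are the independent pairs the labels name. Alternatives were leaving out each array, other features, summaries over spots, centring, scaling, local medians, annotation symbols, robust eBayes and other folds. The series' values hold no sequences, and none are given.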

Additional observations from a re-analysis of the deposited data

How the results depend on the processing

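The number of changed genes, 0 over all features and 0 among the members, was the same under the 11 alternatives run for it. Over all features their lowest limma adjusted p lay between 0.184 (named genes only) and 0.954 (without replicate 3). Among the members it lay between 0.727 (without replicate 2) and 0.954 (without replicate 3), and was 0.783 with named genes only. At an unadjusted p of 0.05 in the main fit there were 924 features (287 higher, 637 lower). The 1 member past a fold of 1.5 on all arrays became 2 when 1 spot of a gene sufficed (2 of 98 spots, 1 each of eIF2D and eIF3i), 0 with array medians subtracted, 0 with arrays also scaled to one median absolute deviation, 2 when the fold was set to 1.3 and 0 when it was set to 2. It was 1 to 3 without one replicate, when 2 arrays sufficed. The 19 members with one sign became 28 when 1 spot of a gene sufficed and 26 to 29 without one replicate, when 2 arrays sufficed. Of the 98 member spots 35 (35.7%) kept one sign, 13 above 0 and 22 below, against 12.6% and 15.9% of spots with 1 symbol. Without replicate 1, 16 members were above 0 and 12 below, against 28.0% and 24.5% of named genes. Without replicate 2 it was 9 and 17, against 21.3% and 32.1%. Without replicate 3 it was 11 and 18, against 21.4% and 31.5%. The split of 7 above and 12 below was 9 and 5 with local medians subtracted and 8 and 7 with array medians subtracted, and the cause was not tested. The difference of factors and synthetases, 0.048, ranged from −0.12 to 0.16 without one replicate and moved by less than its spread over arrays under the other alternatives, turning to −0.0040 with synthetases without -m only.

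Of the 45 members 37 had means that turned or shrank by over 1.5 times when any one of the arrays was left out, and 16 with local medians subtracted. The shares of all named genes that did so were not computed, so these counts describe no trait particular to the members. Each ratio is the difference within a biological pair, so the fit reported is itself the paired analysis. Signal over background could not be judged, since only ratios were analysed.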
